A study of Mus musculus with 99 samples.

Results

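This report describes 8 genes of the cochlear outer hair cell that have been less studied than prestin or oncomodulin: Lbh, Strip2, Aqp11, Meikin, Fam57b, 1600022D10Rik, 1700025G04Rik and 2310016D03Rik. They are 8 of the 55291 gene symbols in the count table and were chosen by name, as genes that were high in wild-type outer hair cells (OHCs) and lost or much lower in converted inner hair cells (cIHCs). By reads summed over the OHCs they ranked from 34 (Aqp11) to 3106 (2310016D03Rik) in that table, so not all were among its highest genes. The contrast between those 2 kinds of cell therefore chose the genes, and its values are given below as a description, with no test. What the choice did not use is the spread of each gene between single OHCs, whether the 8 genes vary together there, and in which cIHCs reads remain.

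Single hair cells of C57BL/6 mouse cochleae were hand-picked by their fluorescence and sequenced as full-length cDNA. The wild-type group held 32 OHCs of postnatal day 30 with the genotype Slc26a5-CreER/+; Ai9/+. The other group held 67 cIHCs of postnatal day 42 with the genotype Slc26a5-CreER/+; Rosa26Tbx2/+, which are OHCs made to express Tbx2 from the Rosa26 locus. Both groups carry the Slc26a5-CreER allele, which drives recombination from the prestin gene, and both were picked by tdTomato. Age and genotype differ together between the groups, so their effects cannot be told apart. Sex make-up differed too: Y-linked genes reached 10 CPM in 24 of 32 OHCs and 12 of 67 cIHCs, and Xist in 4 and 55. OHCs of an earlier study were not analysed here. The labels name no animal for any cell, so each group counted as 1 sample and no p-value was computed. The 95% intervals below cover counting error for levels and ratios, and the draw of cells for shares of cells. None of them covers differences between animals.

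OHCs amplify sound by changing length, through the membrane motor prestin (Slc26a5), and buffer calcium with oncomodulin (Ocm), while inner hair cells pass the signal on to the auditory nerve. Tbx2 is a T-box transcription factor of the inner hair cell. Of the 8 genes, Lbh encodes a transcription cofactor that Wnt signalling can induce. Strip2 encodes a subunit of the STRIPAK complexes, which join striatins, the phosphatase PP2A and protein kinases. Aqp11 is an aquaporin of the endoplasmic reticulum, Meikin is a kinetochore factor known from meiosis I, and Fam57b (also named Tlcd3b) is a TLC-domain protein linked to ceramide synthesis.

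Depth was similar in both groups. An OHC had between 5656512 and 9287413 counts (median 7443782) and a cIHC between 4677682 and 13792672 (median 7757517), and the cells had a median of 6068.5 and 8546 genes with reads. Tbx2 checked the labels: it had 3 counts in all 32 OHCs together, and in cIHCs 112.7 counts per 1000000 (CPM) in the lowest cell, 583.9 in the median cell and 2642.6 in the highest. The summed level of 6 OHC markers ran from 21886 to 68699 CPM in OHCs and from 165 to 5188 CPM in cIHCs, and that of 10 inner hair cell markers from 1205 to 4732 and from 4325 to 20792 CPM. Oncomodulin gave most of the OHC marker sum in OHCs, a pooled 44926 of 50798 CPM. The sum therefore does not show each marker falling, and 1 of the 6, Sri, had reads in all 67 cIHCs. Of 10 supporting cell markers, 9 had reads in some OHC and 6 in some cIHC, with summed levels of 0 to 901 CPM (median 0) and 0 to 870 CPM (median 1.77). OHC 22 stood apart with the 901 CPM, of which Epyc gave 772 CPM and Gjb2 116.7 CPM, and OHC 30 followed with 244 CPM. Slc1a3 was at 0 in the OHCs, and Epyc, Fabp7, Matn4 and Prox1 were at 0 in the cIHCs. The 5 glia markers summed to 0 to 174 and 0 to 119 CPM, the 8 blood and macrophage markers to 0 to 67.0 and 0 to 337 CPM, and the 6 markers of both hair cell types to 4471 to 9238 and 3059 to 14590 CPM.

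Of the 8 genes, 7 had an entry in GENCODE M21 (GRCm38), and 6 had a promoter in the RefSeq table of the same build. Lbh lies on chromosome 17 (72918305 to 72941947, + strand), Strip2 on chromosome 6 (29917012 to 29959681, +), Aqp11 on chromosome 7 (97724006 to 97738289, −) and Meikin on chromosome 11 (54370652 to 54426790, +). Fam57b lies on chromosome 7 (126797668 to 126830219, +), 1700025G04Rik on chromosome 1 (151852403 to 152090125, −) and the long non-coding RNA gene 2310016D03Rik on chromosome 12 (30410559 to 30467358, −). The gene 1600022D10Rik matched neither table.

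The stretches just before the annotated starts of 4 genes are shown because these genes are lower together while their starts differ in makeup. Each is from RefSeq (GRCm38.p6), reads 5′ to 3′ on the gene's own strand and ends at the outermost annotated start. Capitals mark TTCCCA, the reverse complement of the Ikaros-type letters TGGGAA, or the TATA letters TATAAA. The positions are chr17:72918055-72918304 for Lbh, chr7:97738290-97738497 for Aqp11, chr6:29916763-29916975 for Strip2 and chr12:30467359-30467608 for 2310016D03Rik.
Lbh: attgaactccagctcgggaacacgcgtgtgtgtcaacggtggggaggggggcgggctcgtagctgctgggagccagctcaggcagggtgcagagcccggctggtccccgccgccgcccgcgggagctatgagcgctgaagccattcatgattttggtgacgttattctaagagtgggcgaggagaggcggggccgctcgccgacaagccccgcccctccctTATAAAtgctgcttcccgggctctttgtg
Aqp11: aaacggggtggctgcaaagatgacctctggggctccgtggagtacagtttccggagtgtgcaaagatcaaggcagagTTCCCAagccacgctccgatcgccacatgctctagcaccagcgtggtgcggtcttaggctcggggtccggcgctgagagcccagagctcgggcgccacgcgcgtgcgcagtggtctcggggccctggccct
Strip2: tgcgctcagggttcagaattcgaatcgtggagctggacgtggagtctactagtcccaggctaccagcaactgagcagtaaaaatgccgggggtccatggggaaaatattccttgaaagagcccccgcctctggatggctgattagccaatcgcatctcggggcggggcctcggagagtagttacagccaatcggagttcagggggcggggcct
2310016D03Rik: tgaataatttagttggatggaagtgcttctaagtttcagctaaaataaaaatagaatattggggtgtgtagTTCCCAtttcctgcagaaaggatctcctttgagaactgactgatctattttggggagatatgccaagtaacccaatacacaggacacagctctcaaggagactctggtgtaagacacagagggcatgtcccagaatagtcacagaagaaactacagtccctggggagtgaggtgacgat

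In Lbh the TATAAA lies 29 bases before the end of the stretch. In the 300-base windows from 250 before to 50 after the start, GC content was 65% for Lbh, 68% for Aqp11, 62% for Strip2 and 75.3% for 1700025G04Rik, each with 22 to 33 CpG dinucleotides. The 2310016D03Rik window held 45% GC and 2 CpG, and the 3 Fam57b windows held 49.3%, 58.3% and 53.3% GC with 6, 6 and 1 CpG. The median over 32851 promoters was 52.7% and 7. Both strands were searched for 7 motifs. The T-box letters AGGTGTGA were in no window of the 6 genes and in 1.28% of all promoters. The 6 genes have 8 windows, 3 of them of Fam57b. TGGGAA was found in 3 of the 8 windows, and for Aqp11, Fam57b and 2310016D03Rik, and in 25.6% of all promoters. TATAAA, searched after the sequences were seen, was found in 2 of the 8 windows, for Lbh and Fam57b, and in 13.6% of all promoters. The Gfi1-type letters AATCAC were in a window of Fam57b alone among the 6 (10.4% of all promoters), GCAGCTGC and ATGCAAAT in none (1.99% and 1.74%), and the E-box CANNTG, whose letters include GCAGCTGC, was found in 4 of the 8 windows and in 72.3% of all promoters. A match is a run of letters and not a measured site.

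Across the 8 genes the loss took 3 forms. Strip2 was lower but had reads in every cIHC, Aqp11 and Lbh were far lower with reads left in 48 and in 4 of the 67 cIHCs, and the other 5 genes had 7 reads in all cIHCs together against 154745 in the OHCs. The median log2 ratio of cIHC over OHC pooled CPM (counts summed over a group, divided by the group's total) was -13.66 over the 8 genes, with sums under 3 counts set to 3, beside 0.25 over the 10041 genes with at least 10 CPM in 1 group. All 8 genes were at least 4-fold lower in cIHCs, as were 7.34% of the 2343 genes with at least 50 pooled CPM and reads in at least 75% of OHCs (7.57% of the 8376 genes with at least 10 CPM in OHCs). At least 64-fold lower were 6 of the 8 genes, all but Strip2 and Aqp11, and 1.02% of the 2343. Since the 8 genes were chosen on this contrast, nothing further is read from these counts.

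**Figure D1:**
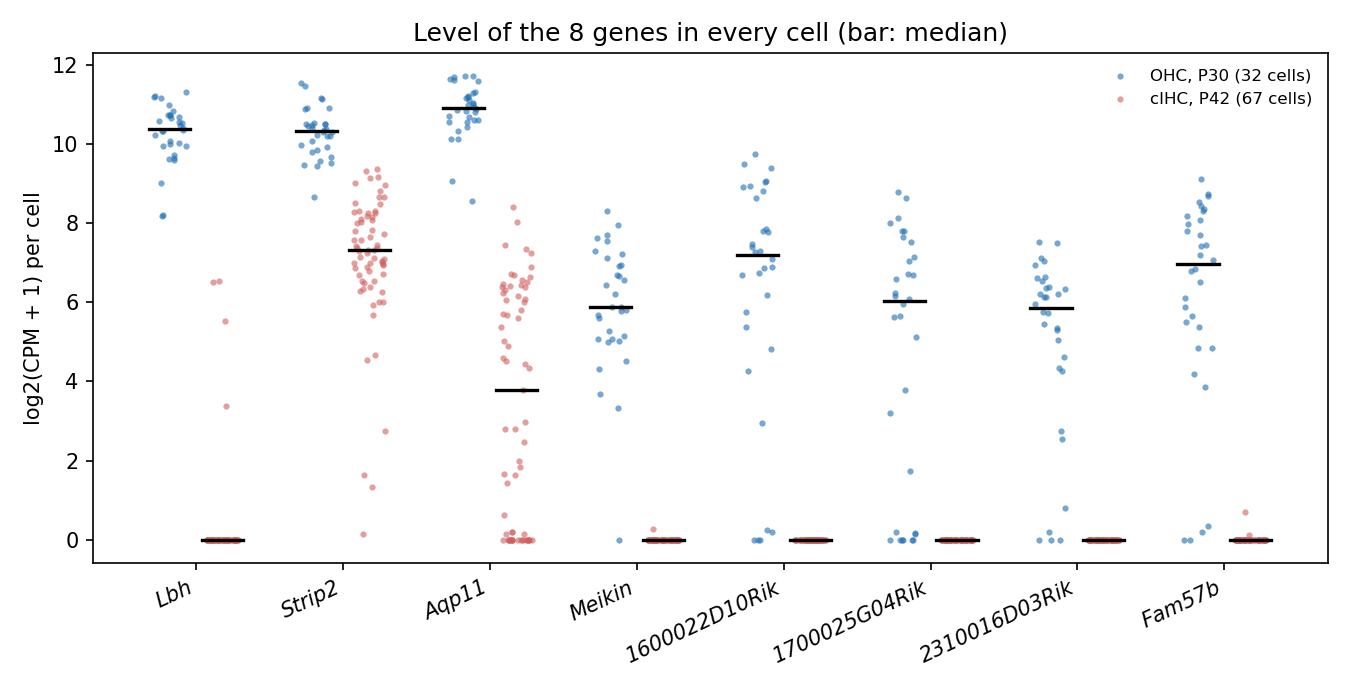
Each point is 1 cell and shows log2(CPM + 1) of 1 of the 8 genes, for 32 OHCs (blue) and 67 cIHCs (red); bars are medians. Strip2 reads were left in all 67 cIHCs, Aqp11 in 48 and Lbh in 4, while the other 5 genes had 7 reads there in all.

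Lbh was among the highest genes of the OHCs, at rank 58 of the table by pooled CPM. Its level was 292.2 CPM in the lowest OHC, 1335 in the median cell and 2542 in the highest, and every OHC had reads. In cIHCs it was 0 in the lowest and the median cell and 91.8 CPM in the highest. The lowest OHC thus lay above the highest cIHC, which held for 0.384% of the 2343 genes, Lbh and Aqp11 among them. Pooled CPM was 1365.3 (1360.7 to 1370.0) in OHCs and 3.03 (2.88 to 3.18) in cIHCs, 0.222% of the OHC level and a log2 ratio of -8.82 (-8.89 to -8.75). Of the 1647 remaining reads 40.5% came from cIHC 22, and the ratio was -9.51 once cIHC 22 and the highest OHC were left out.

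Strip2 was the least reduced of the 8 genes. The OHCs ran from 404.1 CPM in the lowest cell through a median of 1297 to 2994 in the highest. The cIHCs ran from 0.100 CPM through a median of 158.3 to 663.6, and 63 of the 67 had at least 10 CPM. The groups overlapped: 9 cIHCs lay above the lowest OHC, which was the only OHC below the highest cIHC. Pooled CPM was 1346.3 (1341.7 to 1351.0) in OHCs and 210.0 (208.8 to 211.3) in cIHCs, which is 15.6% of the OHC level and a log2 ratio of -2.68 (-2.69 to -2.67).

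Aqp11 had the highest CPM of the 8 genes, at rank 34 of the table in OHCs. Its lowest OHC had 376.3 CPM, the median OHC 1941 and the highest 3378. The median cIHC had 12.7 CPM and the highest 339.0, so the groups did not overlap. Reads were found in 48 of 67 cIHCs (71.6%, exact Clopper-Pearson interval 59.3% to 82.0%), with at least 10 CPM in 34. Pooled CPM was 2053.1 (2047.4 to 2058.8) in OHCs and 41.3 (40.7 to 41.8) in cIHCs, 2.01% of the OHC level and a log2 ratio of -5.64 (-5.66 to -5.62). The log2 ratio of the median cells was lower, -7.26, and 19 cIHCs had no read.

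The kinetochore gene Meikin was far below Lbh, Strip2 and Aqp11 in OHCs, at rank 2161 of the table by pooled CPM. In cIHCs it was at the edge of detection. Of 32 OHCs, 31 had reads, with 58.1 CPM in the median cell and 319.5 in the highest, and OHC 2 had none. In the 67 cIHCs a single read was counted, in cIHC 1. Pooled CPM fell from 88.0 (86.9 to 89.2) to 0.0018, a log2 ratio of -15.55 with a wide interval of -20.85 to -13.07.

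The ceramide-related Fam57b had reads in 30 of 32 OHCs, with a median of 124.1 CPM and a highest value of 559.3. In cIHCs it had 6 reads, 5 of them in cIHC 65 and 1 in cIHC 52. Its pooled CPM was 166.2 (164.6 to 167.9) in OHCs and 0.011 (0.0040 to 0.024) in cIHCs, a log2 ratio of -13.88 (-15.33 to -12.76) and -14.76 once cIHC 65 and the highest OHC were left out. Exons of Fam57b and of Aldoa, a glycolytic enzyme gene on the opposite strand, share 25 bases, 0.635% of the Fam57b exons. Aldoa had reads in all 99 cells at a pooled 593.1 CPM in OHCs and 778.1 in cIHCs, where Fam57b had its 6 counts.

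The 3 genes that carry only clone names had no read in any cIHC, which allows a share of cIHCs with reads of up to 4.48% each (3 of 67), or 5.36% by the upper Clopper-Pearson bound. Gene 1600022D10Rik had reads in 29 of 32 OHCs (median 144.9 CPM, highest 856.7) and a pooled 227.8 CPM, and was at least 41306-fold lower in cIHCs (3 counts over all cIHCs were taken as the floor). Gene 1700025G04Rik had reads in 26 OHCs (median 64.6 CPM, highest 445.5) and a pooled 95.9 CPM, and was at least 17393-fold lower. The long non-coding RNA 2310016D03Rik had reads in 29 OHCs (median 57.2 CPM, highest 184.3) and a pooled 61.3 CPM, and was at least 11120-fold lower. Of the 2343 genes, 0.299% had under 3 counts in the cIHCs, and these included Meikin and the 3 clone-named genes. These 4 of the 8 genes thus had a cIHC total below that limit.

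Levels between genes are compared per kilobase of annotated exon, for the 7 genes with an annotation. Pooled level per kilobase in OHCs was 425.1 CPM for Lbh, 218.0 for Aqp11, 161.6 for Strip2, 57.8 for Meikin, 42.2 for Fam57b, 39.6 for 2310016D03Rik and 8.14 for 1700025G04Rik. In this order each gene's range over OHCs overlapped that of the next. Lbh was above Aqp11 in 26 of 32 OHCs, Aqp11 above Strip2 in 24, and Strip2 above Meikin in 30. Meikin was above Fam57b in 18 OHCs and Fam57b above 2310016D03Rik in 13, so these neighbours did not differ beyond their spread, while 2310016D03Rik was above 1700025G04Rik in 27.

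The spread between OHCs was smaller for the 3 high genes than for the other 5. The coefficient of variation (CV, the SD over the mean of CPM) over 32 OHCs was 0.386 for Aqp11, 0.424 for Lbh and 0.437 for Strip2. It was 0.833 for 2310016D03Rik, 0.851 for Meikin, 0.920 for Fam57b, 1.06 for 1600022D10Rik and 1.19 for 1700025G04Rik. The median over the 2343 genes was 0.907, so 2310016D03Rik and Meikin lay below it and Fam57b close to it, and CV fell with level over those genes (Spearman rho -0.802 across genes, which are not independent replicates). Among the known OHC genes, prestin, oncomodulin and Sri varied less than any of the 8, with CVs of 0.224, 0.208 and 0.328. Ikzf2, at 0.647, varied more than Aqp11, Lbh and Strip2. Lmod3 had reads in 23 of 32 OHCs and so was not among the 2343 genes.

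**Figure D2:**
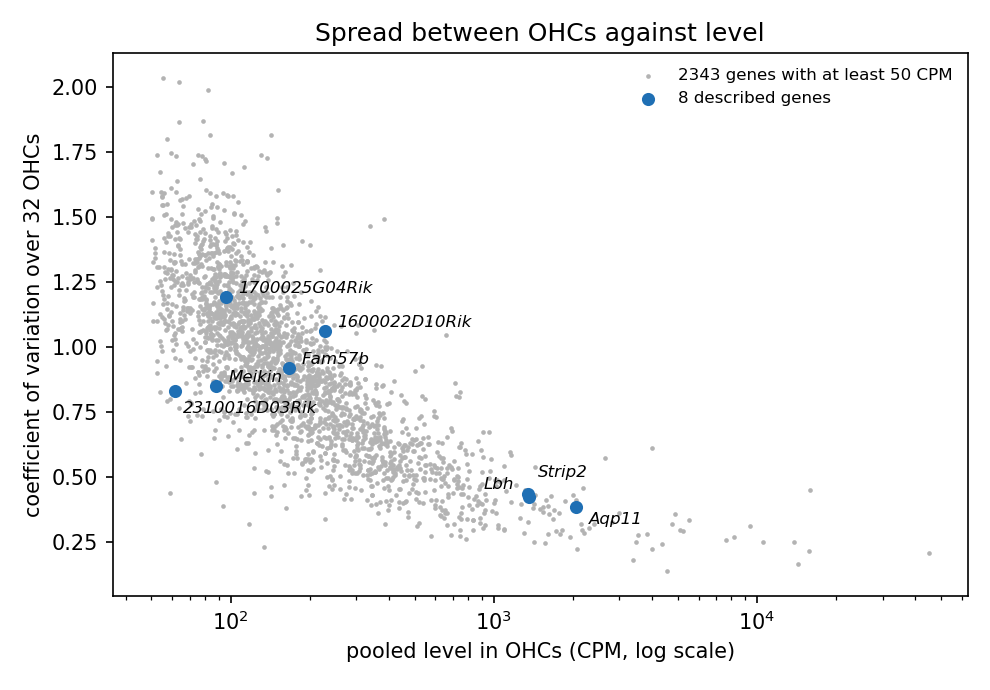
The coefficient of variation over 32 OHCs is plotted against pooled CPM (log axis) for 2343 genes in grey and the 8 described genes in blue. Aqp11, Lbh and Strip2 lie at 0.386 to 0.437, the other 5 between 0.833 and 1.19.

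All 32 OHCs had reads of Lbh, Strip2 and Aqp11, and 21 had reads of all 8 genes. Of the other 11 OHCs, 9 lacked 1 of the 5 variable genes, and OHCs 2 and 32 each lacked 3. OHC 2 had no reads of Meikin, 2310016D03Rik and Fam57b but the highest Aqp11 level of all cells. OHC 32 had no reads of 1600022D10Rik, 2310016D03Rik and Fam57b. The summed CPM of the 5 genes was 87.2 in the lowest OHC, 655.3 in the median and 1460.1 in the highest, and at most 0.626 in any cIHC.

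Gene 1700025G04Rik had the most uneven pattern. It was without reads in 6 OHCs and under 1 CPM in 3 more, and 21 of 32 had at least 10 CPM. When each cell was thinned to 5770000 reads, 20 of the 29 OHCs deep enough had reads of it (69.0%, against 81.3% of all 32 before thinning). The 3 OHCs left out for depth all had reads of it, so part of this fall comes from leaving them out. Lbh, Strip2 and Aqp11 still had reads in all 29. Among the high genes, Lbh was lowest in OHCs 13 and 5, with 292.2 and 295.6 CPM, Strip2 in OHC 4 and Aqp11 in OHC 22. OHC 22 also had the highest Strip2 level, 2994 CPM, and the lowest oncomodulin level of all OHCs, 17896 CPM. This is the cell with the supporting cell reads (Epyc 772 CPM, Gjb2 116.7 CPM), and their part in its values was not tested. Without OHC 22, chosen after its values were seen, the lowest Aqp11 level was 532.8 CPM, the highest Strip2 level 2824 CPM and the lowest oncomodulin level 34818 CPM, with a CV of 0.352 for Aqp11 and 0.402 for Strip2.

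**Figure D3:**
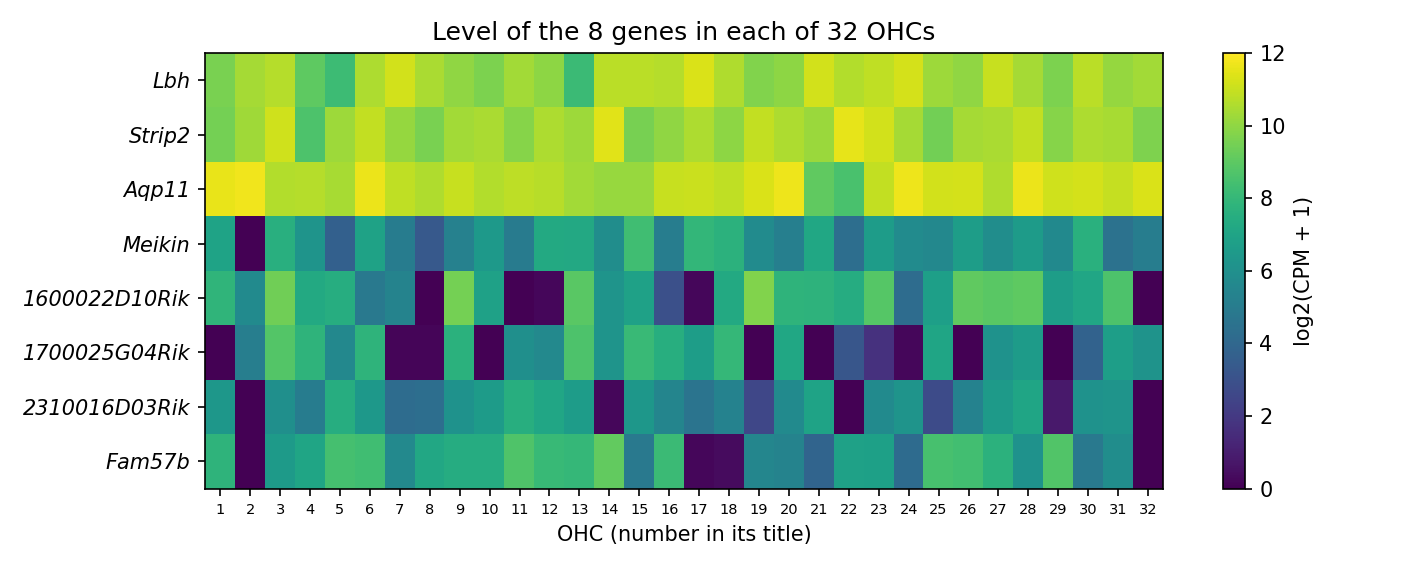
Colour gives log2(CPM + 1) of each of the 8 genes (lines) in each of the 32 OHCs (columns, numbered as in their titles). Lbh, Strip2 and Aqp11 have reads in every column, and the dark fields of the other 5 genes fall in different OHCs, with 3 such genes without reads in OHCs 2 and 32.

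The 8 genes did not vary together across OHCs. Over their 28 pairs the median Spearman rho of CPM was 0.017 (n = 32 cells), beside a median of 0.0018 over all 2743653 pairs of the 2343 genes, and 15 of the 28 pairs were above 0. No pair reached 0.5, which 0.238% of all pairs did, and none reached -0.5; 0.461% of all pairs reached 0.5 in either direction. The highest rho was 0.33, between Meikin and 2310016D03Rik, and it was 0.36 without the 2 cells farthest from the median. Strip2 and 1600022D10Rik followed with 0.31, and Lbh and Strip2 with 0.26. The lowest was -0.40, between Lbh and Fam57b, and it was -0.31 without the 2 farthest cells. All such values are descriptions over cells of 1 group that share a scale by total counts.

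**Figure D4:**
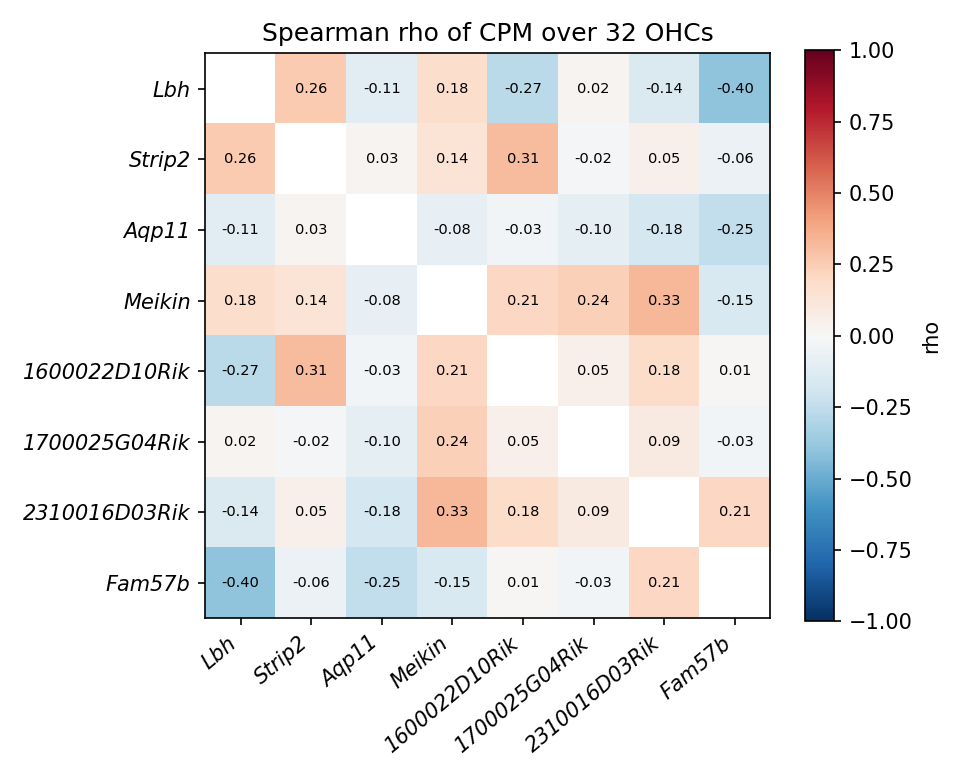
Each field gives the Spearman rho of CPM over 32 OHCs for 1 pair of the 8 genes, from -1 (blue) to 1 (red). The 28 values run from -0.40 to 0.33, around a median of 0.017.

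Against the known OHC genes the 8 genes also differed from each other. Strip2 had a rho of 0.49 with prestin, and 1600022D10Rik 0.39. With oncomodulin, Lbh had -0.49 and 2310016D03Rik 0.47. The latter also had -0.44 with Lmod3, a leiomodin of actin filaments. Technical measures moved with some of these levels: Aqp11 had a rho of -0.46 with the mitochondrial share of reads and Strip2 -0.36 with total counts, and their part in the levels was not tested.

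Of 2335 other genes compared in OHCs, between 3 and 10 reached a rho of 0.5 with each of the 8 genes. Over all pairs of genes the share was 0.238%, so these counts are near the background, and the most alike genes are named as a description. The most alike were Hsph1 (rho 0.61), Rpl31 (0.57) and Chst2 (0.56) for Lbh, and Cldn14 (0.57), Rn7s2 (0.56) and Sgip1 (0.53) for Strip2. Aqp11 was most alike to Ube2n (0.66), Bcl7a (0.61) and Sacm1l (0.60), and Meikin to Acss2 (0.53), Fcor (0.52) and Zcchc17 (0.52). For Fam57b these were Tma7 (0.55), Gpd1l (0.54) and Atp8a2 (0.52). Among the clone-named genes, 1600022D10Rik was most alike to Matr3 (0.57), Nudt14 (0.56) and Tmem63b (0.55), 1700025G04Rik to Rpsa (0.62), Tmem165 (0.61) and Taldo1 (0.58), and 2310016D03Rik to Atp1b2 (0.54), Ubn2 (0.53) and D7Ertd443e (0.52). No gene stood in the lists of 2 of the 8.

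In the cIHCs the remaining reads were spread unevenly over cells. Of the 67 cIHCs, 17 had reads of Strip2 alone among the 8 genes, 45 had reads of 2 genes and 5 of 3. Lbh reads were found in cIHC 22 (91.8 CPM, 6.88% of the OHC median), cIHC 2 (90.7 CPM), cIHC 55 (44.9 CPM) and cIHC 20 (9.47 CPM). All 4 also had Aqp11 reads, from 0.144 CPM (1 read) in cIHC 20 to 70.5 CPM in cIHC 22. Since 48 of all 67 cIHCs had Aqp11 reads, nothing is read from this overlap.

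Known OHC genes left reads in cIHCs too, in all of them or in some. Sri had reads in all 67 cIHCs, from 138.2 CPM in cIHC 20 to 1083.8 in cIHC 11. In OHCs it ran from 965.7 CPM in OHC 14 to 5007.2 in OHC 23. Ikzf2 had reads in 24 cIHCs and Lmod3 in 2. Prestin had reads in 7 cIHCs, 4 of them with 1 read and 1 with 2 reads, and none of the 7 was among the 4 with Lbh reads; with so few cells nothing is read from this. The highest prestin level, 13.3 CPM in cIHC 33, stood beside no read of Lbh or oncomodulin. Oncomodulin reads were found in 51 cIHCs, 3 of them with Lbh reads and 39 with Aqp11 reads. Over all 67 cIHCs, 4 had Lbh reads and 48 had Aqp11 reads, so nothing is read from these overlaps. In cIHC 22 the highest Lbh level met the highest oncomodulin level, 4718 CPM or 10.8% of the OHC median, with no prestin read. In cIHC 55, by contrast, Lbh stood at 44.9 CPM with oncomodulin and prestin at 0.

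Strip2 and Aqp11, the 2 genes with reads in most cIHCs, did not vary together there either. Their rho over 67 cIHCs was -0.10, and in cIHC 67 Strip2 had 1 read beside 150.7 CPM of Aqp11. The highest Aqp11 level, 339.0 CPM in cIHC 16, was 17.5% of the OHC median. With Tbx2 itself, Strip2 had a rho of 0.23 and Aqp11 of -0.37. Technical measures moved with both: Strip2 had a rho of 0.45 with the number of genes with reads, and Aqp11 of -0.47 with total counts and 0.36 with the mitochondrial share. Their part was not tested.

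**Figure D5:**
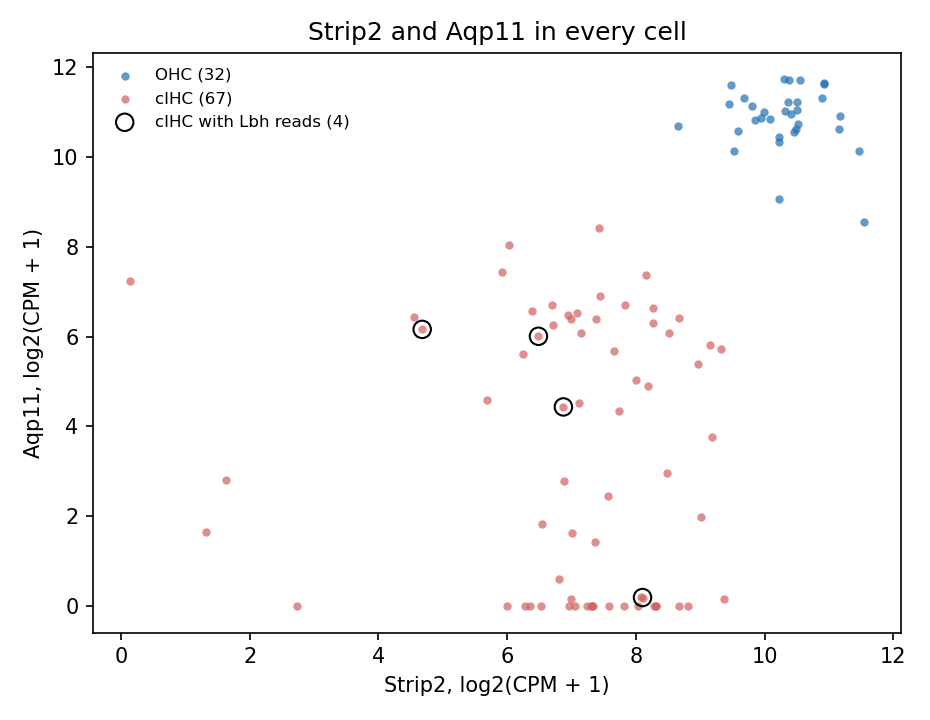
Each point is 1 cell at its log2(CPM + 1) of Strip2 and of Aqp11, for 32 OHCs (blue) and 67 cIHCs (red); circles mark the 4 cIHCs with Lbh reads. No cIHC reaches the lowest OHC in Aqp11, while 9 do in Strip2.

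The relatives of the 8 genes were described by lists of their complexes and pathways, over genes with at least 10 pooled CPM in 1 group. Of all 10041 such genes, 6.31% were at least 4-fold lower in cIHCs and 12.7% at least 4-fold higher, with a median log2 ratio of 0.25. A gene that reached 10 CPM in 1 group alone tends to differ by that filter, so the counts are a description. Of 15 other STRIPAK genes, 1 was lower, none was higher, and the median log2 ratio was 0.03. Ppp2ca, the catalytic PP2A subunit and the highest of the list in OHCs, had 182.9 CPM in OHCs and 186.0 in cIHCs, and the lower gene was the kinase gene Stk24, with 29.1 and 2.92 CPM. Stk24 falls outside the naming rule and was singled out with its value in view. So were Aqp2, Sycp2, Rec8, Sgms1, Cers4, Cers6, Lgr5, Rnf43 and Nkd2 below.

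Of 11 other aquaporins, 2 had 10 CPM in a group, and both reached it in OHCs alone, which largely fixed that they were lower. Over the 5 with more than 3 counts in a group the median log2 ratio was -0.73, against -7.77 over these 2. Aqp5, a water channel of the plasma membrane, had 39.4 CPM in OHCs, with reads in 21 of them, and 0.066 in cIHCs with a log2 ratio of -9.22. Aqp2 had 29.8 and 0.371 CPM, with reads in 10 of 32 OHCs and 2 of 67 cIHCs.

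Of 4 meiotic kinetochore and cohesion genes with 10 CPM, 3 were lower and none higher: Plk1, Sycp2 and Rec8. These 3 reached 10 CPM in OHCs alone, and the median log2 ratio was -3.19 over the 4 but -0.39 over the 10 with more than 3 counts in a group. Plk1, a mitotic and meiotic kinase that Meikin is known to bind, had 35.2 and 3.64 CPM, with reads in 13 OHCs and 5 cIHCs. Rec8, a meiotic cohesin, had reads in 3 OHCs and 3 cIHCs. Meikin had reads in 31 of 32 OHCs, but it was chosen as high in OHCs, so it is not ranked against the other genes of this list.

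Of 16 genes of TLC-domain proteins and ceramide synthesis, 2 were lower and 2 higher, with a median log2 ratio of 0.31. Cers1, a ceramide synthase, had 93.8 and 20.7 CPM, a log2 ratio of -2.18, and Sgms1, a sphingomyelin synthase, had 46.98 and 6.62 CPM. Cers6 had no read in OHCs and 12.5 CPM in cIHCs, and Cers4 had 0.062 and 12.4 CPM. Cers5, the highest of the list in OHCs, had 153.2 and 135.1 CPM.

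Of 15 Wnt pathway genes, none was lower and 4 were higher, with a median log2 ratio of 0.13. Fzd4, a Wnt receptor, had 1.21 CPM in OHCs and 155.6 in cIHCs, a log2 ratio of 7.01. The other 3 were Lgr5, Rnf43 and Nkd2, at 14.9 to 22.9 CPM in cIHCs. All 4 reached 10 CPM in cIHCs alone, and over the 27 list genes with more than 3 counts in a group the median log2 ratio was 0.82. Lgr5 is also 1 of the 10 supporting cell markers used above, and gave 18.3 of their pooled 40.2 CPM in cIHCs. Gsk3b, the kinase of the destruction complex and the highest of the list in OHCs, had 402.8 and 390.3 CPM.

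Genes beside the 8 on the chromosome are given as a description. Of the nearest protein-coding genes on each side of the 7 placed genes, none of the 12 with over 3 counts in a group was 4-fold lower, where 6.31% of all genes with 10 CPM in a group were, so the count is near the background. Their log2 ratios ran from -1.51 for Pak1, beside Aqp11, to 1.91 for Tsen15, beside 1700025G04Rik. Clns1a, only 3.2 kb from Aqp11, had a ratio of 0.48, and Ahcyl2, 4.7 kb from Strip2, of 0.69. Ypel5 and Lclat1 on either side of Lbh had -0.75 and -0.04. An antisense gene, Gm28610, shares 333 bases of exon with 1700025G04Rik and had 0 and 7 counts. Inside the span of 2310016D03Rik, with no exon shared, the annotated miRNA gene Gm25865 had 6.598 CPM in OHCs, with reads in 9 of them, and none in cIHCs. It was named after its value was seen.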

How the data were processed

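Each of 99 single cells was 1 sample, and groups came from the titles. The authors deposited 1 table of read counts per gene symbol and cell. The values are whole numbers with a different total in each cell, and no row was without a gene name. Per the submitters' processing notes, HISAT2 2.2.1, StringTie 2.2.1 and featureCounts 2.0.1 were used with mm10; the strand setting and annotation release are not given in the sources used here. Reads carry no molecular identifiers and are not independent molecules, so intervals of levels and ratios cover counting error only. Intervals of shares treat cells as independent draws.

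Counts were divided by cell or group totals (CPM). Intervals are exact Poisson, exact conditional binomial for ratios and Clopper-Pearson for shares, at 95%. A sum under 3 counts was set to 3 counts over the group for bounds and medians. All cells were kept and no doublet caller was run, since cells were picked singly, and 0 pairs of columns were identical. Correlations are Spearman rho of CPM, over genes with at least 50 pooled CPM and reads in at least 75% of OHCs. Ratios were checked on simulated data with 200 changed genes among 8376: 98.0% of the changed genes came within 0.5 log2 of the known value. The simulated falls were smaller than those of all the described genes but Strip2 and Aqp11, so the check does not cover the larger falls. Simulated correlated pairs had a median rho of 0.78, but they were drawn as normal values without counts, totals or cells without reads. This value checks only how rho is computed, and not whether shared variation could be seen in these counts. Named genes are the 8 genes, the 3 most alike to each, their neighbours and overlaps, 5 OHC genes, Tbx2, and per list the highest in OHCs and those at 50 CPM with a 4-fold difference. Members and lists were chosen with earlier results of these data known. Alternatives covered scaling (TMM from edgeR 4.0.16; DESeq2-type median of ratios), thinning, cell averages and cell subsets. Python 3.11.15 with numpy 2.4.6, pandas 2.3.3 and scipy 1.17.1 was used.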

Additional observations from a re-analysis of the deposited data

How the results depend on the processing

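All 74 log2 ratios of single genes computed under the alternatives were below 0. The median log2 ratio of the 8 genes, -13.66, was -5.15 from medians of CPM per cell, where only Strip2 and Aqp11 have a value, and -10.95 over the 24 OHCs and 12 cIHCs with Y-linked reads, where the floor of 3 counts weighs more because fewer cells are summed. Under the other 8 settings it ran from -13.86 to -12.79, the latter over the 4 OHCs and 55 cIHCs with Xist reads. TMM and median-of-ratios scaling moved every ratio by -0.19 and -0.20. Under the latter the medians of the STRIPAK and Wnt lists changed sign, to -0.17 and -0.074. Single ratios that moved by over 1.5 times were those of Lbh (-9.51 without the highest cell of each group, -7.58 in the cells with Y-linked reads), Aqp11 (-7.26 from medians per cell) and Fam57b (-14.76 without the highest cells, -12.18 and -12.74 in the cells with Y-linked and with Xist reads); the cause was not tested. The ratios of the 4 genes with 0 or 1 read in cIHCs rest on the floor of 3 counts, so they also moved by over 1.5 times where fewer reads were summed. With this floor and all cells they were -13.96 (Meikin), -15.33 (1600022D10Rik), -14.09 (1700025G04Rik) and -13.44 (2310016D03Rik). The Meikin ratio given further above was computed without the floor. In the same order the 4 ratios were -11.31, -12.77, -11.29 and -10.61 in the cells with Y-linked reads. After thinning they were -13.35, -14.71, -13.31 and -12.84. In the cells with Xist reads the ratio of 2310016D03Rik was -12.84. Without OHC 22, a setting added after the data were seen, the median ratio was -13.69 and the median rho 0.026. The median rho of the 28 pairs stayed between -0.0011 and 0.042 under 8 alternatives. The share of genes at least 4-fold lower was 7.57% with a floor of 10 CPM in OHCs and no limit on cells, and 8.58% under median-of-ratios scaling. Requiring 10 CPM lowered the share of cIHCs with Aqp11 from 71.6% to 50.7%. At this depth the floor of 3 counts in the cIHCs is 0.0055 CPM, and the exact upper bound for 0 reads is 0.0068 CPM. No paired analysis was possible because title numbers merely number the cells of a group and no result comes from a test.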
